A study of Mus musculus with 14 samples.

Results

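The double-positive neurons described here are spiral ganglion neurons of late embryonic and newborn mice that carried RNA of both Calb2 and Lypd1. A cell was counted among them when its Calb2 level was at least 5 UMIs per 10000 UMIs of the cell and it held at least 1 UMI of Lypd1, where a UMI (unique molecular identifier) marks 1 captured RNA molecule. Of the 1326 cells collected at embryonic day 18 (E18) and postnatal day 1 (P1), 298 met both conditions, among 5441 cells in the whole series. The other 1028 cells of the same libraries fell into 3 classes by the same cuts: 511 Calb2-only cells (Calb2 at least 5, no Lypd1 UMI), 412 Lypd1-only cells (a Lypd1 UMI, Calb2 under 5) and 105 cells with neither. Since Calb2 and Lypd1 chose the cells, their own levels are given as a description with no test. The classes are ranges cut from 2 measured values and not types of cell.

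The mice were of the outbred CD1 strain, with no treatment or altered gene named in the labels. Ganglia that still carried parts of the sensory epithelium and mesenchyme were pooled, dissociated with papain and run as 10x Chromium 3' droplet libraries. There were 3 E18 libraries, from separate litters, and 2 P1 libraries, and E14 and E16 libraries, dissociated with trypsin, enter only a check of the rule. Each library is a pool of animals, so p-values measure the spread between pools, and cells of 1 library are not replicates.

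Spiral ganglion neurons carry signals from cochlear hair cells to the brainstem: type I neurons contact inner hair cells and type II neurons contact outer hair cells. Type I neurons are divided into IA, IB and IC, known for calretinin (encoded by Calb2), calbindin (Calb1) and the Lypd1 and Pou4f1 transcripts, respectively, and the transcription factor Runx1 is associated with IB and IC. Lypd1 encodes a membrane-anchored protein that modulates nicotinic acetylcholine receptors. On the mm10 build, Calb2 lies at chr8:110137502-110168210 on the minus strand and Lypd1 at chr1:125867622-125913101 on the minus strand, both protein-coding.

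The 3 E18 libraries held 377, 323 and 162 cells and the 2 P1 libraries 263 and 201. Their totals ranged from 1460876 to 3026607 UMIs, and the median depth of a cell ranged from 4676 UMIs in E18 replicate 2 to 11440 in P1 replicate 1. Pan-neuronal and spiral ganglion markers were present in the double-positive cells of every library: the summed level of 10 neuron markers was 13986 to 18077 CPM (the gene's UMIs scaled by all UMIs of the summed cells), against 14613 to 17631 in the other cells, and that of 9 spiral ganglion markers 1335 to 1663 against 1276 to 1656. E18 replicate 1 stood apart in its mitochondrial ribosomal RNA, with 0.701% of UMIs from mt-Rnr2 in its double-positive cells against 0.111% to 0.187% in the other 4 libraries. Results that rest on this library are given without it below.

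In E18 replicate 1, 64 of 377 cells were double-positive, which is 16.98% (exact Clopper-Pearson 95% interval 13.3% to 21.2%). E18 replicates 2 and 3 gave 12.4% (9.00% to 16.5%) and 15.4% (10.2% to 21.9%), from 40 and 25 cells. At P1 the share was 40.7% (34.7% to 46.9%, 107 cells) in replicate 1 and 30.8% (24.5% to 37.7%, 62 cells) in replicate 2. Both P1 libraries lay above all 3 E18 libraries: the mean was 35.8% ± 6.96 (SD, n = 2) at P1 and 14.9% ± 2.34 (SD, n = 3) at E18, a difference of 20.8 percentage points. The exact two-sided permutation test over libraries gave p = 0.2, the smallest value that 3 libraries against 2 allow. It therefore cannot decide whether the ages differ, and the shares, which the rule itself sets, are given as a description. Intervals cover counting error only.

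Depth differed between libraries, so the rule was also applied after each cell was thinned to 5000 UMIs. That left out 14, 204 and 7 cells at E18 and 10 and 26 at P1. The shares were then 14.3%, 12.6% and 13.5% at E18 and 34.4% and 26.9% at P1, against 17.4%, 13.4% and 16.1% and 41.5% and 30.9% in the same cells unthinned. The P1 libraries remained above the E18 libraries, by 17.1 points. With a Calb2 minimum of 20 in place of 5 the difference was 9.54 points, with p = 0.4 in the exact permutation test.

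Carrying both RNAs was less common than the product of the 2 single shares in each of the 5 libraries. The product of the share of cells with Calb2 of at least 5 and the share with a Lypd1 UMI was 28.9%, 24.9% and 27.9% at E18 and 47.5% and 39.5% at P1, each above the observed share. The odds ratio of the 2 conditions was 0.114, 0.104, 0.109, 0.136 and 0.1501 in the same order. Among members the median Calb2 level was 17.8 per 10000 and the highest 88.7, and the median Lypd1 level was 5.08 and the highest 27.3. The median Lypd1 level was 6.48, 6.12 and 5.70 in the E18 libraries and 4.73 and 3.95 in the P1 libraries. A single Lypd1 UMI qualified 76 of the 298 members (25.5%).

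**Figure D1:**
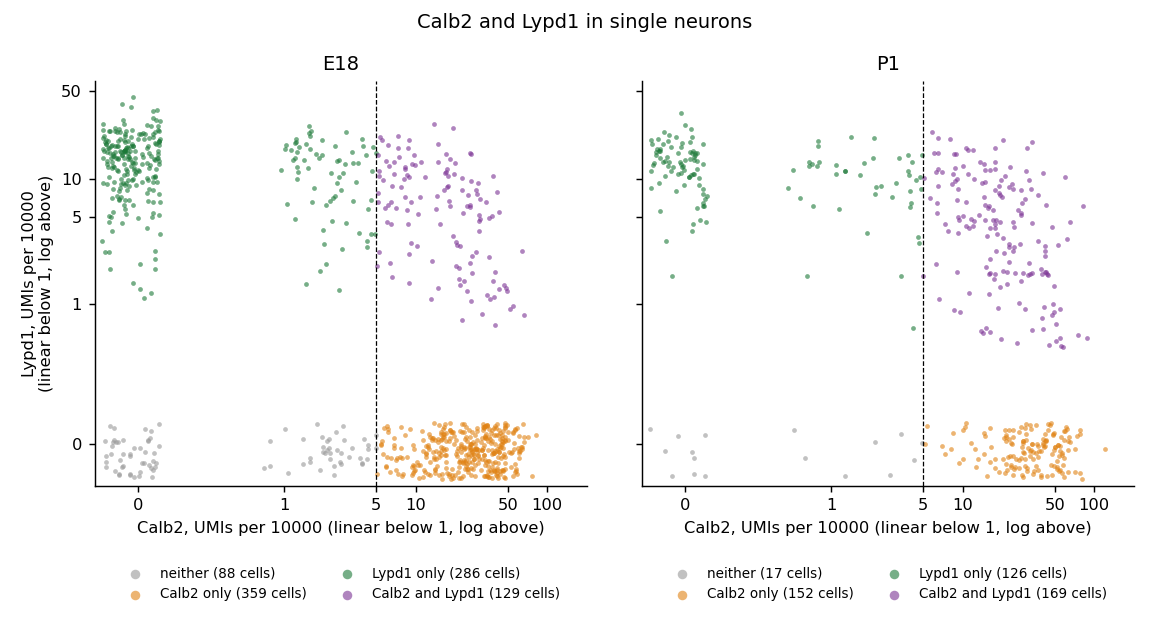
Calb2 (horizontal) against Lypd1 (vertical) in each cell at E18 and P1, in UMIs per 10000 UMIs of the cell on axes that are linear below 1 and logarithmic above; points at 0 are spread sideways for visibility and the dashed line is the Calb2 minimum of 5. The double-positive cells number 129 at E18 and 169 at P1 and run from high Lypd1 at low Calb2 to low Lypd1 at high Calb2.

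Total UMIs per cell were compared between double-positive and all other cells, as a check for droplets that hold 2 cells. In E18 replicate 1 the median was 7713 UMIs in double-positive cells and 7840 in the others, in replicate 2 it was 4921.5 and 4638, and in replicate 3 it was 9442 and 8942. At P1 the medians were 11485 and 11338.5 in replicate 1 and 6938 and 7595 in replicate 2. Double-positive cells were deeper in 3 libraries and shallower in 2. The mean log2 ratio of medians was 0.0057 ± 0.088 (SD, n = 5), and the exact sign-change permutation test gave p = 0.9375, where 5 pairs allow no p under 0.0625.

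Between 6.25% and 12.1% of double-positive cells per library lay above the 90th percentile of their library. The deepest cell of any of the 14 libraries held 14991 UMIs. Whether deeper cells or doublets were removed before deposit is not given in the sources used here, so a doublet rate cannot be read from the depth alone. Among the 5 libraries 2 cells shared a cell barcode, and 0 of them were double-positive.

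**Figure D2:**
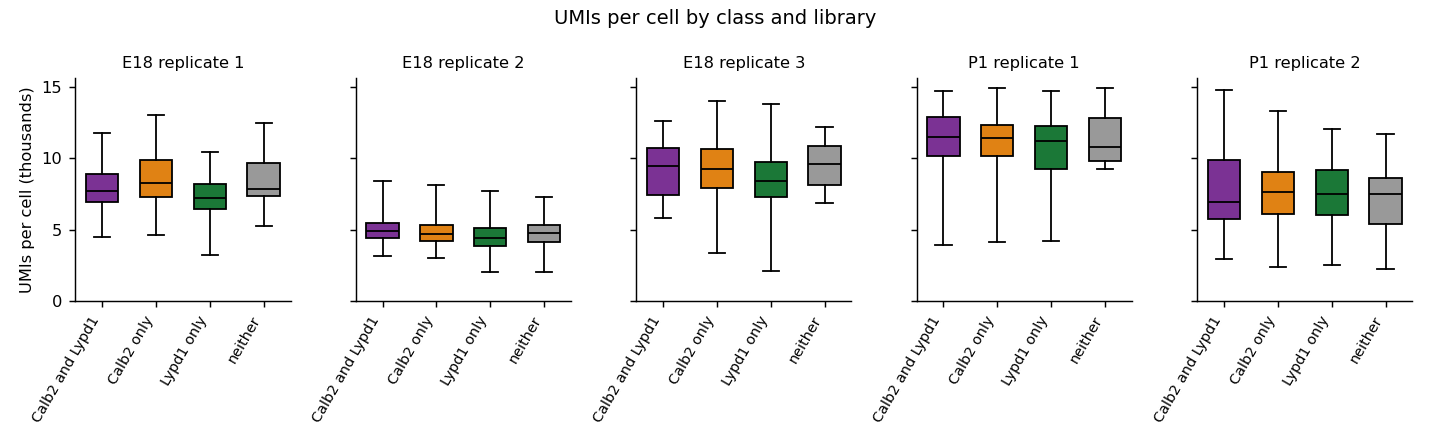
UMIs per cell (in units of 1000) for the 4 classes in each of the 5 libraries; boxes span the quartiles, the line is the median and whiskers reach the lowest and highest cell. The double-positive boxes overlap those of the other classes in all 5 libraries.

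Droplet libraries hold free RNA, so the rule was also read in cells with type II genes. Cells with UMIs of at least 2 of the type II genes Th, Etv4, Cilp and Ngfr numbered 124 (median 8653.5 UMIs). Of these, 21.0% had a Lypd1 UMI and 10 (8.06%) met the rule, against 56.9% and 288 of 1202 (24.0%) of the remaining cells (median 7522.5 UMIs). The levels differed by library: 0 of 17 and 0 of 11 such cells met the rule in E18 replicate 3 and P1 replicate 2, but 8 of 23 (34.8%) did in P1 replicate 1, where 41.2% of the remaining cells did. In P1 replicate 1 these 23 cells had 2370 CPM of Calb2 against 2636 in the remaining cells, and 128 CPM of Lypd1 against 635. A Lypd1 UMI was found in 39.1% of the 23 and in 68.75% of the remaining cells. The cells with type II genes thus carried Calb2 themselves, and how much of either RNA was free was not tested.

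The 16 members with Calb2 from 5 to 6 had 319 CPM of Runx1, 235 of Calb1 and 18.8 of Pou4f1, and the 19 cells with a Lypd1 UMI and Calb2 from 4 to 5, just outside, had 234, 109 and 45.7. The 76 members with 1 Lypd1 UMI had a higher median Calb2 level (26.7) and less Runx1 (107 CPM) and Calb1 (83.1 CPM) than the 222 members with more, which had a median Calb2 of 16.7, 249 CPM of Runx1 and 236 CPM of Calb1. These values are pooled over the 5 libraries and carry no test.

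UMI counts were summed per library and class, and the double-positive sum of each library was compared with the sum of all its other cells by edgeR's quasi-likelihood test with the library as block. Of 8491 genes tested, 195 (2.3%) passed an adjusted p of 0.05 (Benjamini-Hochberg), 114 higher (1.34%) and 81 lower (0.954%) in double-positive cells. The median log2 difference over all genes tested was 0.0054. Without E18 replicate 1 the count was 106, and with DESeq2 in place of edgeR it was 62.

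Runx1, at chr16:92601466-92826149 on the minus strand, encodes a Runt-domain transcription factor. Its summed level in double-positive cells was 296, 259 and 208 CPM in E18 replicates 1 to 3 and 182 and 187 in P1 replicates 1 and 2. In all other cells it was 147, 132, 132, 118 and 103 CPM, so that each double-positive sum lay above every other sum, and the log2 difference was 0.86 ± 0.09 (SE, adjusted p = 1.3e-13). With a Calb2 minimum of 20 the difference was 0.29 with an adjusted p of 0.6 by the same edgeR test. Members with Calb2 under 20 then counted among the other cells. The same holds below for members left out at any higher minimum in comparisons with all other cells. The level in double-positive cells was below that of Lypd1-only cells in each library (366, 274, 275, 228 and 201 CPM). That difference did not pass (-0.28 ± 0.10, adjusted p = 0.11), which does not show equal levels. Calb2-only cells were further away, with 28.2, 54.8, 29.9, 39.2 and 33.0 CPM (difference 2.72 ± 0.14, adjusted p = 3.3e-32).

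Runx1 was also read per cell. A Runx1 UMI was found in 79.7%, 72.5%, 76%, 69.2% and 64.5% of double-positive cells, in the same library order, against 17.8%, 19.0%, 26.7%, 25.6% and 21.4% of Calb2-only cells. Lypd1-only cells had shares of 87.7%, 63.1%, 83.6%, 80.6% and 64.4%. After thinning to 5000 UMIs the shares were 45.7% to 81.2% in double-positive, 11.3% to 18.2% in Calb2-only and 53.8% to 83.0% in Lypd1-only cells.

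Runx factors bind DNA at the core letters TGTGGT. The promoter windows below (250 bases before to 50 after a RefSeq start, build GRCm38.p6, 5' to 3' along the gene's strand) are those of Runx1 itself and of 2 genes higher in double-positive cells than in both Calb2-only and Lypd1-only cells, chosen because they hold these letters. They are Runx1 (chr16:92826025-92826324, minus strand), Car12 (chr9:66713436-66713735, plus strand) and Ppp1r14c (chr10:3365900-3366199, plus strand). Capitals mark TGTGGT or its reverse complement ACCACA.
Runx1: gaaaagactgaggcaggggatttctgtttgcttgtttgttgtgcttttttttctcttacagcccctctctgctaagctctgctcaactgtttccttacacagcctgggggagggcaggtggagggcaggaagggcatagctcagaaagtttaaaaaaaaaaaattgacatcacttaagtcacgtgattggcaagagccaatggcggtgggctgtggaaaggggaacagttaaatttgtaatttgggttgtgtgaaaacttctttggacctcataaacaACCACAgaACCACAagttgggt
Car12: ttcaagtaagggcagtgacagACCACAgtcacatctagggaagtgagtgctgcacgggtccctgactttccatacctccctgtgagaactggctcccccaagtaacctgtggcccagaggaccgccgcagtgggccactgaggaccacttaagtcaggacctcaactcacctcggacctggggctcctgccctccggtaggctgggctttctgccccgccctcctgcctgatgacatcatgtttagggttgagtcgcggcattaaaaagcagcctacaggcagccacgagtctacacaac
Ppp1r14c: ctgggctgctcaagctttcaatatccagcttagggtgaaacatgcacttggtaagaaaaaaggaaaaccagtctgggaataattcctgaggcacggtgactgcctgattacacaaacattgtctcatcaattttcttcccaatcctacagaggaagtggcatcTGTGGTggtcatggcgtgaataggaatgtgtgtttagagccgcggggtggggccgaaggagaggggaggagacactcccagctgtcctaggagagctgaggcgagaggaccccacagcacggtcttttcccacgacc
The Runx1 window shown holds 2 matches, and those of Car12 and Ppp1r14c 1 each. A second Runx1 start in the table (chr16:92697280-92697579) has a window with 0 matches. Of the 17 genes higher than in both classes 9 had a promoter in the table, and 2 of these (22.2%) held a match on either strand. Among all genes with a promoter the share was 18.9% (5113 of 27025), and 13.7% among the tested genes, so the share in these genes is near the background. A match describes letters in a window and not a bound site.

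Calb1, at chr4:15881264-15908064 on the plus strand, encodes calbindin, a cytosolic calcium buffer. Its level in double-positive cells was 342, 155 and 147 CPM at E18 and 198 and 85.1 at P1. Lypd1-only cells had 132, 57.8, 68.8, 124 and 62.5 CPM and Calb2-only cells 26.7, 14.4, 17.6, 21.3 and 7.33, so that in each library the double-positive cells were highest. The log2 difference was 2.06 ± 0.12 from all other cells (4.18-fold, adjusted p = 9.1e-30), 1.01 ± 0.13 from Lypd1-only cells (adjusted p = 1.1e-09) and 3.42 ± 0.16 from Calb2-only cells (adjusted p = 7.9e-35). A Calb1 UMI was found in 70.3%, 42.5%, 52%, 61.7% and 38.7% of double-positive cells. Lypd1-only cells had shares of 49.2%, 19.4%, 34.4%, 55.2% and 37.3%, so the shares were closer at P1 than at E18.

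Pou4f1, which encodes the POU-domain factor Brn3a, was low in double-positive cells: 27.5, 29.9 and 34.7 CPM at E18 and 13.4 and 14.5 at P1. Lypd1-only cells had 135, 146, 88.4, 109 and 112 CPM, with no overlap, and the difference was -2.53 ± 0.19 (adjusted p = 7.9e-20). Calb2-only cells had 0 to 1.83 CPM, and double-positive cells passed the test as higher than these (adjusted p = 2.4e-12). Against all other cells together, a mixture of both, Pou4f1 was lower by 1.16 ± 0.21 (log2 -1.16, adjusted p = 3.7e-05), but in the E18 libraries alone the difference was -0.58 with an adjusted p of 0.41. Where each of the other 3 classes had equal weight the sign turned (2.09).

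Of the 7 genes listed for types IB and IC, 3 were tested in each comparison: Runx1, Calb1 and Pou4f1. Against Calb2-only cells all 3 were higher (median log2 difference 3.42, against 0.0035 over all 6939 genes tested, of which 2.75% were higher). Against Lypd1-only cells Calb1 was higher, Pou4f1 was lower and Runx1 did not pass. Lypd1 was left out as a gene of the rule, and Ttn, Grm8 and Lmx1a had too few UMIs for a test.

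Type IA genes lay on the other side. Rxrg, a retinoid X receptor, had 29.4, 39.9 and 17.3 CPM in double-positive cells at E18 and 28.4 and 20.8 at P1. Calb2-only cells had 78.6, 72.1, 47.4, 93.0 and 36.7 CPM and Lypd1-only cells 6.79, 21.4, 5.90, 5.57 and 2.23, so that the double-positive value lay between both in each library. The log2 difference was -1.34 ± 0.20 from Calb2-only cells (adjusted p = 1.3e-07) and 1.69 ± 0.33 from Lypd1-only cells (adjusted p = 0.00014), the latter 1.16 with an adjusted p of 0.11 when members needed 2 Lypd1 UMIs.

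Of 5 tested type IA genes, 4 were higher than in Lypd1-only cells (median log2 difference 1.03, against -0.0038 over all genes tested, of which 2.33% were higher). They were Rxrg, Mdga1, Pcdh20 and B3gat1, which encode the receptor above, 2 adhesion molecules and a glucuronyltransferase. Against Calb2-only cells 2 of the 5 were lower (Rxrg and Pcdh20, median -0.17) and 0 higher. Pcdh20 had 3.93, 14.96, 17.3, 5.02 and 10.4 CPM in double-positive cells, 14.6 to 44.5 in Calb2-only and 0 to 2.26 in Lypd1-only cells. Its call against Calb2-only cells was lost without E18 replicate 1 (adjusted p = 0.11) and that against Lypd1-only cells without E18 replicate 3 (adjusted p = 0.051), and that of Mdga1 without P1 replicate 2 (adjusted p = 0.077).

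**Figure D3:**
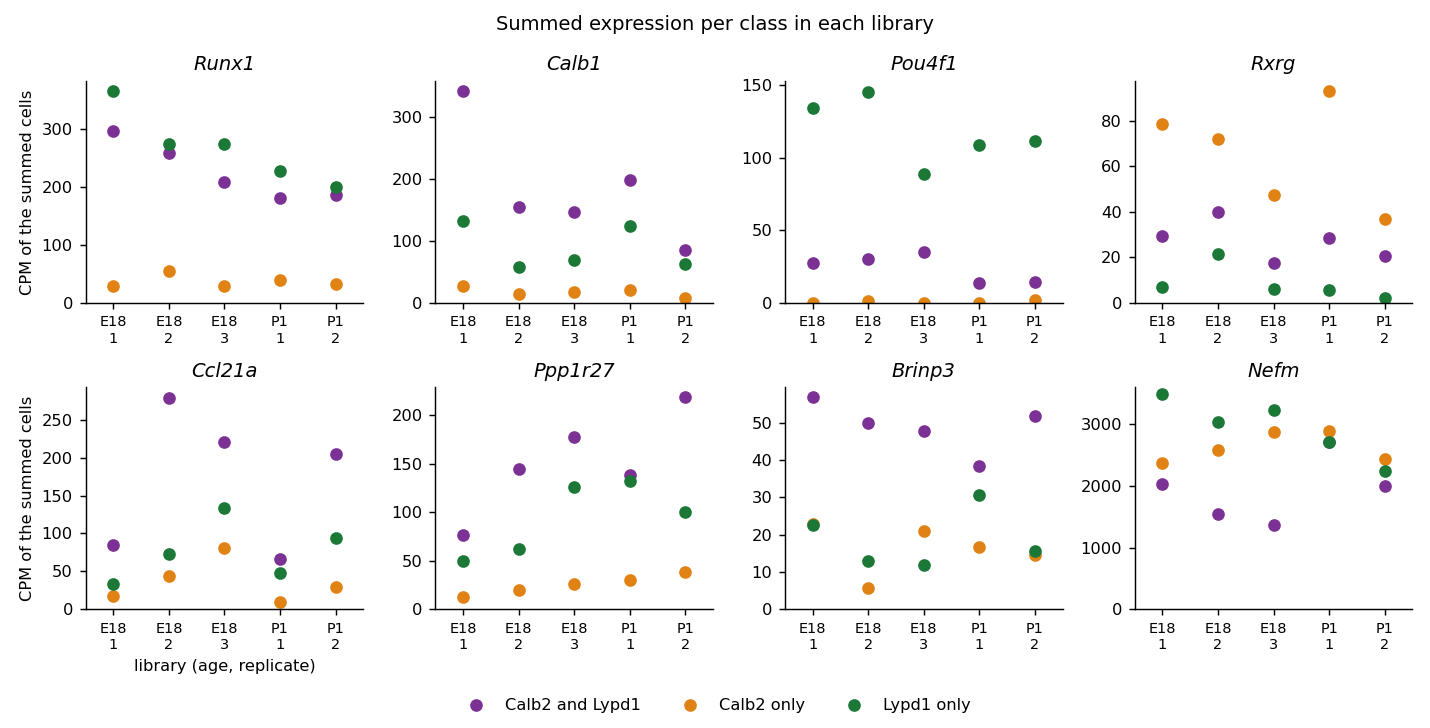
Summed expression (CPM, linear axes from 0) of 8 genes in double-positive, Calb2-only and Lypd1-only cells, 1 point for each class and library. Runx1 in double-positive cells lies near the Lypd1-only level, Pou4f1 and Rxrg lie between both classes, Calb1, Ccl21a, Ppp1r27 and Brinp3 lie above both in all 5 libraries, and Nefm lies below both in all libraries but P1 replicate 1.

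Type II genes were low. Th, which encodes tyrosine hydroxylase, had 1.96, 0, 4.33, 7.53 and 4.15 CPM in double-positive cells and 30.4, 27.4, 33.4, 23.5 and 22.0 in Calb2-only cells, with no overlap (difference from all other cells -2.30 ± 0.34, adjusted p = 2.7e-07). Gata3, a zinc-finger transcription factor, had 102, 84.8, 52.0, 99.5 and 56.1 CPM against 265, 288, 144, 135 and 121 in all other cells (-1.003 ± 0.11, adjusted p = 3.2e-12). Of 6 type II genes tested against all other cells, 4 were lower (Th, Prph, Etv4 and Gata3, median -0.68) and 0 higher, where 0.954% of all genes were lower. The Etv4 call was lost without E18 replicate 1, 2 or 3 or P1 replicate 2.

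Prph, which encodes the intermediate filament peripherin, differed by the class it was set against. Double-positive cells had 265, 169.6 and 169 CPM at E18 and 245 and 145 at P1, Calb2-only cells 575, 469, 416, 386 and 282 (-0.94 ± 0.10, adjusted p = 1.4e-12) and Lypd1-only cells 62.2, 62.1, 43.2, 44.6 and 6.69 (2.26 ± 0.16, adjusted p = 3.7e-22). Against all other cells the difference was -0.31 ± 0.08 (adjusted p = 0.011). That call was lost without any 1 of the 3 E18 libraries, and the sign turned at a Calb2 minimum of 20 (0.21) and, at 0.0019, in the P1 libraries alone.

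The classes that share 1 of the 2 markers give a closer comparison, made in 1 edgeR fit over all 4 classes. Against Calb2-only cells 343 of 6939 genes (4.94%) passed, 191 higher (2.75%) and 152 lower (2.19%), and against Lypd1-only cells 284 (4.09%), 162 higher (2.33%) and 122 lower (1.76%). Both comparisons use the same double-positive sums. The 2 single-marker classes differed from each other in 1062 genes (15.3%). For 86 genes (1.24%) the double-positive cells lay between the classes with both calls made, in opposite directions.

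Among these genes were Slc17a6, Ntng1, Bhlhe22, Necab1 and Pvalb. Slc17a6, the vesicular glutamate transporter VGLUT2, had 51.0, 44.9, 78.0, 52.7 and 76.8 CPM in double-positive cells, 5.77 to 11.2 in Calb2-only cells (2.91 ± 0.25, adjusted p = 1.6e-17) and 109.7 to 154 in Lypd1-only cells (-1.16 ± 0.15, adjusted p = 2.3e-09). The 3 classes did not overlap. Ntng1, which encodes the guidance protein netrin-G1, had 208, 449, 486, 234 and 297 CPM, against 16.8 to 64.9 in Calb2-only cells (3.38 ± 0.15, adjusted p = 6e-37) and 413 to 723 in Lypd1-only cells (-0.88 ± 0.09, adjusted p = 1.3e-12).

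Bhlhe22, a basic helix-loop-helix factor, had 31.4 to 52.0 CPM in double-positive, 1.12 to 11.0 in Calb2-only and 99.5 to 143 in Lypd1-only cells, so that the classes did not overlap (3.17 ± 0.31, adjusted p = 5.8e-15, and -1.49 ± 0.17, adjusted p = 8.1e-12). Necab1, a neuronal calcium-binding protein, was graded the other way, with 20.9 to 41.2 CPM in double-positive, 59.7 to 86.0 in Calb2-only and 0 to 10.2 in Lypd1-only cells (-1.31 ± 0.20, adjusted p = 1.6e-07, and 2.49 ± 0.37, adjusted p = 2.1e-07). Pvalb, which encodes parvalbumin, had 2684, 2559, 3446, 3089.7 and 4093 CPM, above the Calb2-only cells of each library (1875, 1343, 1965, 2634 and 3280.1; 0.58 ± 0.07, adjusted p = 1.3e-09) and below the Lypd1-only cells (3632, 3710.3, 4372, 4784 and 5907; -0.53 ± 0.07, adjusted p = 3.6e-08). DESeq2 did not make either Pvalb call (adjusted p = 0.17 and 0.37).

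Other large differences from Calb2-only cells were found for Espn, Pld5, Cdk14 and Tshz1, all higher. Espn, which encodes the actin-bundling protein espin, had 64.8, 24.9, 26.0, 48.5 and 20.8 CPM in double-positive cells, against 1.44 to 5.604 in Calb2-only cells (3.54 ± 0.32, adjusted p = 2e-16) and 60.9 to 199 in Lypd1-only cells (-1.87 ± 0.16, adjusted p = 1.1e-17). Espn thus lay between both classes in each library. Cdk14, a cyclin-dependent kinase, had 76.8 to 149 CPM against 17.6 to 30.3 (2.29 ± 0.18, adjusted p = 5.7e-20). Pld5, of the phospholipase D family, and Tshz1, a zinc-finger factor, were higher by 3.31 and 2.06.

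Kctd12, an auxiliary subunit of GABA-B receptors, was lower than in Calb2-only cells, with 19.6, 4.99, 4.33, 25.1 and 14.5 CPM against 97.9, 74.99, 47.4, 62.8 and 45.8 and no overlap (-1.82 ± 0.22, adjusted p = 1e-10). The log2 difference was -1.81 for Tacc2, -1.75 for Nexn, -1.63 for Dok5, -1.62 for Wscd2, -1.51 for Igsf21 and -1.48 for Gatm, which encode, where their roles are well known, a coiled-coil protein, the actin-binding nexilin, a docking protein (Dok5) and an enzyme of creatine synthesis (Gatm). The Wscd2 call was lost without E18 replicate 1 (adjusted p = 0.093).

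Against Lypd1-only cells Igfbpl1, an insulin-like growth factor binding protein, had 251, 259, 208, 175 and 154 CPM in double-positive cells and 23.7 to 88.2 in Lypd1-only cells, with no overlap (1.90 ± 0.13, adjusted p = 3.7e-22). Me1, the cytosolic malic enzyme, Syndig1, a synapse differentiation protein, and Palmd, palmdelphin, were higher by 2.15, 2.15 and 1.92. Ppl, the plakin periplakin, and Mab21l2 were higher by 1.71 and 1.66.

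Among genes lower than in Lypd1-only cells, Hmcn1, which encodes the matrix protein hemicentin, had 4.18 to 21.7 CPM against 23.7 to 59.9 (-2.33 ± 0.32, adjusted p = 2.6e-08), and Igfbp2, another growth factor binding protein, 0 to 12.5 against 24.5 to 59.9 (-2.24 ± 0.32, adjusted p = 7.3e-08). Neither overlapped. The differences were -2.11 for the exchange factor Vav3, -1.58 for Elmod1, -1.57 for the basic helix-loop-helix factor Neurod1, -1.48 for Tmeff2, -1.44 for the semaphorin Sema3a, -1.39 for Epb41l4a and -1.35 for the potassium channel Kcnc2. The calls of Neurod1, Tmeff2 and Kcnc2 were each lost without P1 replicate 1 or P1 replicate 2, and that of Neurod1 also without E18 replicate 1.

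Against all other cells the rest of the largest differences were smaller. Pld5 was higher by 1.10, Rora by 0.85, Aph1b by 0.84 and Ppl by 0.79, where Rora encodes a nuclear receptor and Aph1b a gamma-secretase subunit. At least 1 library decided each of these calls: P1 replicate 2 for Pld5, Rora and Ppl, E18 replicate 1 for Rora and Ppl, E18 replicate 3 for Rora and Aph1b, and P1 replicate 1 for Aph1b. The lower genes were Hmcn1 (-1.44), Igfbp2 (-1.39), Kctd12 (-1.24), the thrombin receptor gene F2r (-1.17), Gatm (-1.12), Ube2ql1 (-1.05), the receptor gene Gpr22 (-1.01) and Igsf21 (-1.01). The Hmcn1 call was lost without P1 replicate 2, the Igfbp2 call without E18 replicate 1, the Gatm call without E18 replicate 2 or either P1 library, and the Ube2ql1 call without E18 replicate 1 or P1 replicate 2.

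The place of the double-positive cells between both classes was read across genes. Genes were chosen by the test of Calb2-only against Lypd1-only cells in the 3 E18 libraries, with no use of double-positive cells, and read in the 2 P1 libraries on a scale where Lypd1-only cells are at 0 and Calb2-only cells at 1. Of 790 genes, 747 kept their direction at P1, and for these the median position of double-positive cells was 0.524 (quartiles 0.267 to 0.767). Positions below 0 were found for 96 genes, 253 lay in the Lypd1-only part of the scale and 298 in the Calb2-only part, and 100 lay above 1. The median was 0.569 over 387 genes higher in Calb2-only cells and 0.463 over 360 genes higher in Lypd1-only cells. With genes chosen at P1 and read at E18 the median was 0.433 (quartiles 0.120 to 0.676, 490 of 509 genes), on the Lypd1-only side of the midpoint, with 192 genes in the Lypd1-only part and 148 in the Calb2-only part. This is a description with no test, since the double-positive cells were cut between both classes by their markers. Mixing of 2 cells in a droplet, an intermediate cell and a sum over unlike members cannot be told apart by the position.

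Some genes lay outside the range of both classes. In 17 genes (0.245%) the double-positive cells were higher than both Calb2-only and Lypd1-only cells with both calls made, and in 15 of these they were so in each of the 5 libraries. In 6 genes (0.0865%) they were lower than both. Both calls held without each library in turn for 8 of the 17 (Brinp3, Ccl21a, Calb1, Crym, C1ql3, Ppp1r14c, Cntnap5a and Cdkn1c) and for 1 of the 6 (Atp6v1g1).

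Brinp3, a BMP and retinoic acid inducible neural gene at chr1:146494760-146902472 on the plus strand, had 56.9, 49.9 and 47.7 CPM in double-positive cells at E18 and 38.5 and 51.9 at P1. Calb2-only cells had 5.77 to 23.0 CPM and Lypd1-only cells 11.8 to 30.6, so the lowest double-positive sum lay above the highest of either class. The log2 difference was 1.48 ± 0.24 from Calb2-only cells (adjusted p = 9.8e-07) and 1.19 ± 0.24 from Lypd1-only cells (adjusted p = 0.00028). In the P1 libraries alone the latter was 0.73 (adjusted p = 0.35).

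Ccl21a, which encodes a chemokine, had 84.4, 279 and 221 CPM at E18 and 66.1 and 206 at P1, above both classes in each library. It differed by 2.28 ± 0.17 from Calb2-only cells (adjusted p = 7.8e-22) and by 1.11 ± 0.15 from Lypd1-only cells (adjusted p = 1.3e-08). The genome holds near-identical Ccl21 copies, so the gene of origin is uncertain. In cells of at least 8000 UMIs the difference from Lypd1-only cells was 0.34 (adjusted p = 0.55).

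Ppp1r27, a regulatory subunit of protein phosphatase 1, had 76.6, 145 and 178 CPM at E18 and 138 and 218 at P1. It was above Calb2-only cells (12.6 to 38.5 CPM) without overlap (2.52 ± 0.16, adjusted p = 3.4e-25) and above Lypd1-only cells in each library (49.8, 62.1, 126, 132 and 100.4 CPM; 0.55 ± 0.13, adjusted p = 0.0037). The latter call was lost without P1 replicate 2 (adjusted p = 0.17), with DESeq2 (0.057) and at a Calb2 minimum of 10 (0.26).

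Dcn encodes decorin, a matrix proteoglycan of fibroblasts. It had 88.3, 119.7, 60.7, 40.1 and 43.6 CPM in double-positive cells, 44.5, 67.8, 43.9, 22.4 and 38.5 in Calb2-only cells (0.75 ± 0.18, adjusted p = 0.0025) and 11.2 to 17.1 in Lypd1-only cells (2.17 ± 0.24, adjusted p = 3.5e-12). Without E18 replicate 1 the first was 0.63 (adjusted p = 0.088). The summed level of 8 mesenchyme markers, Dcn among them, was 64.4 to 145 CPM in double-positive cells and 37.3 to 74.3 in all other cells. Dcn itself gave 119.7 of the 145 CPM in E18 replicate 2, so the sum is not separate from the Dcn result. Of the 8 markers 0 were at 0, and Dcn was the only 1 with enough UMIs for a test. The part of mesenchyme RNA in the result was not tested.

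Smaller differences in the same direction were found for Crym, C1ql3 and Ppp1r14c. Crym, the thyroid hormone binding mu-crystallin, had 259, 185, 225, 281 and 218 CPM in double-positive cells (0.94 ± 0.10, adjusted p = 2.2e-12, from Calb2-only cells and 0.53 ± 0.10, adjusted p = 0.00012, from Lypd1-only cells). C1ql3, a secreted C1q-like protein of synapses, had 332, 254, 512, 247 and 417 CPM (0.47 ± 0.09, adjusted p = 2e-05, and 0.51 ± 0.09, adjusted p = 1.6e-05). Ppp1r14c, an inhibitor of protein phosphatase 1, had 743 to 1015 CPM (0.49 ± 0.07, adjusted p = 2.4e-08, and 0.40 ± 0.07, adjusted p = 1.6e-05).

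Among the rest, Cntnap5a, of the contactin-associated family, differed by 0.39 ± 0.09 and 0.42 ± 0.09, and Cdkn1c, the cyclin-dependent kinase inhibitor p57, by 0.30 ± 0.07 and 0.66 ± 0.07. Car12, a membrane carbonic anhydrase with 41.2, 20.0, 34.7, 28.4 and 27.0 CPM, passed narrowly (adjusted p = 0.049 and 0.034), and so did the secreted semaphorin Sema3e (0.046 and 0.0026). At least 1 of the 2 calls of Car12 and of Sema3e was lost without any 1 of the 5 libraries. Tm6sf1, Cd302, Lrrn3, Sncb and Ppp2r2b complete the 17, with at least 1 call of each lost when some library was left out.

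Of the genes lower than both classes, Hpcal1, a neuronal calcium sensor, had 167, 119.7, 86.7, 171 and 123 CPM in double-positive cells and 202 to 398 in Calb2-only cells (-0.86 ± 0.10, adjusted p = 9.1e-11). It was also lower than in Lypd1-only cells (132 to 313 CPM; -0.53 ± 0.11, adjusted p = 0.0005), a call lost without E18 replicate 1 (adjusted p = 0.11). Atp6v1g1, a subunit of the vacuolar proton pump, had 284 to 417 CPM, against 487 to 546 (-0.54 ± 0.08, adjusted p = 1.8e-08) and 397 to 522 (-0.46 ± 0.08, adjusted p = 9.5e-06). Tra2a, a splicing factor, and Cyb5a, a cytochrome b5, were lower by -0.42 and -0.30 than Calb2-only cells and by -0.39 and -0.50 than Lypd1-only cells.

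Nefm and Nefl, the medium and light neurofilament chains, complete these 6. Nefm had 2024, 1546 and 1369.8 CPM in double-positive cells at E18 and 2719 and 2002 at P1, against 2937, 2904, 3064, 2789 and 2375 in all other cells (-0.46 ± 0.05, adjusted p = 2.7e-11). DESeq2 gave -0.54 with an adjusted p of 0.15, and in the P1 libraries alone the difference was -0.11 (adjusted p = 0.74). Nefl, lower in double-positive cells by -0.33 ± 0.04 (adjusted p = 1.1e-09), was likewise at -0.12 (adjusted p = 0.59) at P1 alone. Against Calb2-only cells, the Nefm call was lost without E18 replicate 3 and the Nefl call without E18 replicate 2 or 3.

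**Figure D4:**
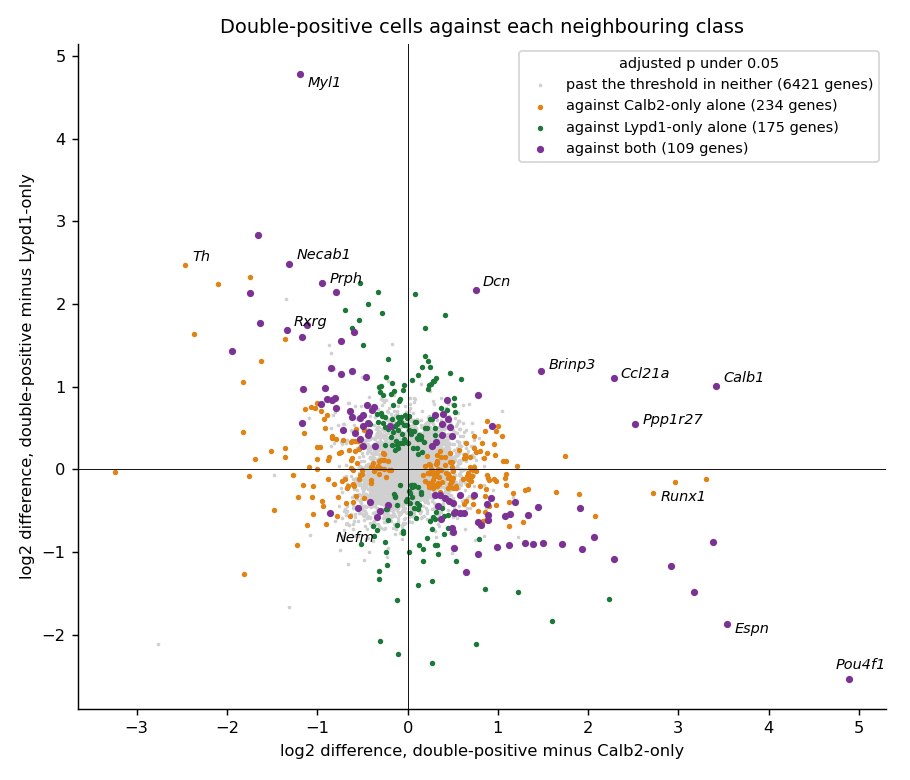
Log2 difference of double-positive from Calb2-only cells (horizontal) and from Lypd1-only cells (vertical), 1 point for each of 6939 genes, coloured by which comparison passed an adjusted p of 0.05. The 109 genes past the threshold in both include Brinp3, Ccl21a, Calb1, Dcn and Ppp1r27 at upper right (higher than both classes) and Prph, Rxrg and Necab1 at upper left; both axes use the same double-positive sums, which by itself ties them.

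Gene lists were counted against all other cells of the same library, where 2.3% of all genes passed and the median was 0.0054. Of 18 tested calcium-binding genes 4 were higher (Calb1, Vsnl1, S100b and Calm2) and 2 lower (Hpcal1 and Necab1), with a median of 0.013. S100b, an EF-hand protein, had 216, 155, 130, 111 and 208 CPM against 98.5, 88.7, 104, 105 and 167 in the other cells (0.55 ± 0.11, adjusted p = 0.00019), a call lost without E18 replicate 1 (adjusted p = 0.27). Of 35 tested neuronal transcription factors 4 were higher (Runx1 among them) and 7 lower (Pou4f1, Rxrg, Gata3, Etv4, Id1, Id2 and Id3), with a median of 0.054. Id1 and Id3, inhibitors of basic helix-loop-helix factors, differed by -0.98 ± 0.10 (adjusted p = 7.9e-14) and -0.82 ± 0.08 (adjusted p = 6e-16).

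Of 27 axon guidance genes 5 were higher and 2 lower (median 0.081). Rgma, a repulsive guidance molecule, had 106, 150, 73.7, 106 and 87.2 CPM against 64.1 to 85.8 in the other cells (0.53 ± 0.12, adjusted p = 0.0027), a call lost without E18 replicate 2 (adjusted p = 0.056) and a sign that turned at a Calb2 minimum of 20 (-0.06). Epha5, an ephrin receptor, was higher by 0.32 ± 0.06 (adjusted p = 0.00028), and Nrp2, Sema3e and Ntng1 passed in the same direction. Efna5 and Unc5b were lower. Of 25 genes of neurofilaments and axonal cytoskeleton 2 were higher (Tubb3 and Gap43) and 3 lower (Nefl, Nefm and Prph). Gap43, a protein of growing axons, had 1258 to 1782 CPM against 968 to 1406 (0.49 ± 0.04, adjusted p = 2.4e-16).

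Lists of excitability genes had few calls against all other cells, close to the 2.3% of all genes. Of 25 tested potassium channel genes 1 was higher, Kcna1 (96.2, 74.8, 52.0, 69.4 and 33.2 CPM against 32.8 to 54.8; 0.66 ± 0.15, adjusted p = 0.0019), a voltage-gated channel subunit whose call was lost without E18 replicate 1 (adjusted p = 0.1) and with DESeq2 (0.15). Of 9 sodium channel genes and of 16 HCN and calcium channel genes 0 passed, and of 10 glutamate receptor genes 1 (Grik3) was lower. Of 27 synaptic vesicle genes and of 12 inhibitory and cholinergic receptor genes 0 passed, and 0 of 7 neurotrophin and GDNF receptor genes did. The comparison with Calb2-only cells had 2 of 25 synaptic vesicle genes higher (Syt2 and Slc17a6) and 1 lower (Syt7), where 4.94% of all genes passed. That with Lypd1-only cells had 2 higher (Syt7 and Slc17a7) and 2 lower (Cplx2 and Slc17a6), where 4.09% passed. Of 7 inhibitory and cholinergic receptor genes Lypd6 was higher and Gabra2 lower than in Calb2-only cells, and 0 passed against Lypd1-only cells.

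The remaining lists were as follows. Of 30 adhesion genes 2 were higher, Cdh9 and Cntnap5a. Of 12 neuropeptide and secreted factor genes 1 was higher (Chga) and 4 lower (Tac1, Vgf, Nrn1 and Wnt5a). Of 10 immediate early and stress genes Jun was higher (0.26, adjusted p = 0.02) and Fos lower (-0.49, adjusted p = 0.0017), and 0 of 17 glycolysis and 0 of 17 cholesterol synthesis genes passed. Of 10 neuron markers 2 were higher and 2 lower, the neurofilament and cytoskeletal genes above, and 0 of 9 spiral ganglion markers passed against all other cells. Of the same 9 spiral ganglion markers Slc17a6 was higher than in Calb2-only cells. Isl1 and Slc17a7 were higher and Slc17a6 lower than in Lypd1-only cells.

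Markers of other cells were read as summed levels. Of the hair cell markers Atoh1, Pou4f3, Gfi1 and Otof were at 0 in double-positive cells, and the summed level of the 8 listed genes was 346 to 516 CPM against 289 to 421 in other cells. Of the 2 tested, Cib2 was higher. Glia markers summed to 14.5 to 41.2 CPM against 21.6 to 48.5, red blood cell genes to 8.31 to 74.8 against 8.44 to 62.8, supporting epithelium markers to 4.99 to 11.8 against 5.32 to 13.9 and endothelium markers to 2.51 to 21.7 against 0.795 to 15.01. Macrophage markers reached at most 16.6 CPM, melanocyte markers 0.836, cycling genes 20.0 and neuroblast genes 34.9, and among vestibular and geniculate markers only Calb1 of 3 tested passed. The 5 measured genes of that list, Calb1 included, summed to 282 to 544 CPM against 198 to 287. The highest sums of the hair cell, mesenchyme, vestibular, red blood cell, endothelium and macrophage lists (macrophage 16.6 against 8.94 CPM) were thus above those of other cells. Cib2, Dcn and Calb1, each called higher in double-positive cells, are themselves in the hair cell, mesenchyme and vestibular sums. The part of such markers in the results was not tested.

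The members were not uniform along Calb2. Pooled over libraries of an age, the 33 P1 members with Calb2 from 5 to 10 had 268 CPM of Runx1, 142 of Calb1, 44.1 of Pou4f1, 84.8 of Prph and 909 of Lypd1. The 31 P1 members with Calb2 of 40 or more had 90.6 CPM of Runx1, 67.2 of Calb1, 0 of Pou4f1, 412 of Prph and 222 of Lypd1. At E18 the 45 members with Calb2 from 5 to 10 had 260 CPM of Runx1, 169 of Calb1, 52.0 of Pou4f1 and 117 of Prph, and the 10 members of 40 or more, all of E18 replicate 1, had 198, 257, 35.0 and 385. At both ages Prph was higher in the highest Calb2 range than in the lowest. P1 replicate 1 gave 29 of the 31 P1 members of 40 or more. These values carry no test.

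Within double-positive cells P1 and E18 differed in 2 of 6358 genes tested (0.0315%), where 222 (3.49%) had an unadjusted p under 0.05. Myl1, a myosin light chain of fast muscle, had 11.8, 4.99 and 13.0 CPM at E18 (9.92 ± 4.32, SD, n = 3) and 93.7 and 114 at P1, with no overlap (log2 difference 3.35 ± 0.43, adjusted p = 0.0018). The unnamed gene model Gm10320, named because it was the only other call and chosen after its values were seen, had 122, 49.9 and 147 CPM at E18 and 3.35 and 4.15 at P1 (-4.77, adjusted p = 0.0012). In all other cells Gm10320 had 114, 34.3 and 115 and then 4.14 and 3.75 CPM.

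Whether the difference from the other cells itself differed between ages was tested as an interaction. It passed for 23 of 8491 genes (0.271%), 10 with a higher log2 difference at P1 (0.118%) and 13 with a lower one (0.153%), where 489 (5.76%) had an unadjusted p under 0.05. By DESeq2 it passed for 1 gene. Myl1 had log2 ratios of double-positive to other cells of -2.25, -4.94 and -1.73 in the E18 libraries and 0.36 and 0.34 in the P1 libraries (interaction 3.27 ± 0.38, adjusted p = 4.3e-14). In Calb2-only cells Myl1 was at 102, 291, 94.8, 113 and 171 CPM and in Lypd1-only cells at 0 to 4.28, so the double-positive cells were near the Lypd1-only level at E18 and close to the Calb2-only level at P1.

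The Myl1 difference was not called once members needed 2 Lypd1 UMIs. For the interaction test, members with 1 UMI then joined the other cells. In P1 replicates 1 and 2 the 26 and 20 members with 1 Lypd1 UMI had 375.5 and 230.0 CPM of Myl1, and the 81 and 42 members with 2 or more had 5.49 and 60.7. In the E18 libraries the corresponding values were 7.33, 0 and 52.4 CPM with 1 UMI and 13.4, 6.65 and 5.19 with more. With 2 UMIs required the interaction was 0.54 with an adjusted p of 1.0, and in cells of at least 8000 UMIs it was 1.87 (adjusted p = 0.22). Free Lypd1 RNA in Calb2-only cells and true low expression cannot be told apart for members with 1 UMI.

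Id3 and Nefm also moved toward the other cells at P1. The log2 ratios of Id3 were -1.32, -1.24 and -1.63 at E18 and -0.49 and -0.61 at P1 (interaction 0.80 ± 0.14, adjusted p = 2.1e-05), a call lost without P1 replicate 1 (adjusted p = 0.2). Those of Nefm were -0.54, -0.91 and -1.16 and then -0.04 and -0.25 (0.64 ± 0.07, adjusted p = 7e-19; DESeq2 1.0). Those of Nefl were -0.41, -0.56 and -0.68 and then -0.06 and -0.22 (0.38 ± 0.06, adjusted p = 2.9e-07). In P1 replicates 1 and 2, members with 1 Lypd1 UMI had 597 and 329 CPM of Id3, against 276 and 191 in members with more. For Nefm the values were 3246 and 2300 against 2554 and 1864. Id3 was also higher with 1 UMI in each E18 library (308, 259 and 236 against 110, 226 and 98.7 CPM). The part of these members in the difference between ages was not tested.

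Ntng1, Rgs10 and Vstm2l went the other way, with double-positive cells above the other cells at E18 and level with or below them at P1. For Ntng1 the ratios were 0.33, 0.96 and 0.55 at E18 and 0.00 and 0.01 at P1 (-0.61 ± 0.13, adjusted p = 0.0051), and for Rgs10, a regulator of G protein signalling, 0.48, 0.60 and 0.21 and then -0.20 and -0.17 (-0.65 ± 0.14, adjusted p = 0.0051). Vstm2l had 0.72, 0.63 and 0.49 and then -0.02 and -0.05 (-0.70 ± 0.17, adjusted p = 0.027). The Ntng1 call was lost without E18 replicate 2, P1 replicate 1 or P1 replicate 2, the Rgs10 call without E18 replicate 1 or 2 or P1 replicate 1, and the Vstm2l call without any 1 library but E18 replicate 3.

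Gata3, H2afy2, S100b and Ylpm1 passed narrowly. Gata3 had ratios of -1.37, -1.75 and -1.45 at E18 and -0.43 and -1.10 at P1 (0.84 ± 0.22, adjusted p = 0.049), and H2afy2, a macro histone H2A variant, -0.42, -0.72 and -0.71 and then 0.05 and 0.35 (0.69 ± 0.18, adjusted p = 0.049). S100b had 1.12, 0.80 and 0.32 and then 0.09 and 0.31 (-0.72 ± 0.19, adjusted p = 0.049), and these ranges nearly touch. Ylpm1 had 0.69, 0.35 and 0.77 and then -0.86 and -1.21 (-1.72 ± 0.42, adjusted p = 0.025). The Gata3 call was lost without any 1 library but P1 replicate 2, the S100b call without any but E18 replicate 3, and the H2afy2 and Ylpm1 calls without any 1 of the 5.

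**Figure D5:**
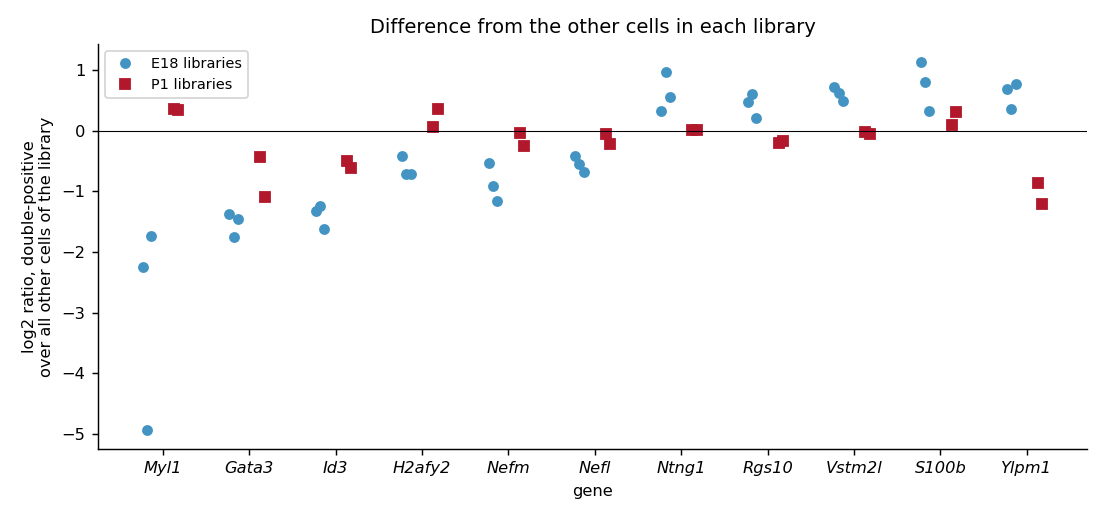
Log2 ratio of summed expression in double-positive cells to all other cells of the same library for 11 genes, 1 point for each library (circles E18, squares P1; 0 means equal). Myl1 lies between -4.94 and -1.73 in the 3 E18 libraries and at 0.34 and 0.36 in the 2 P1 libraries, and Ntng1, Rgs10 and Vstm2l lie at 0.21 or above at E18 and at 0.01 or below at P1.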

How the data were processed

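Single-cell libraries of dissected mouse ganglia were deposited as 1 table of UMI counts and 1 of normalized values for all cells. Per the submitters' processing notes, Cell Ranger 3.0.1, Seurat 3.2 and the mm10 (GRCm38) build were used. The deposited normalized values are the natural log of 1 plus UMIs per 10000 of the cell. Cell and doublet filters are not given in the sources used here, and no doublet caller was run. Cells were assigned to libraries by their name's suffix, read as the sample number. The deposited count table holds 17999 of 26655 genes. The other 8656 genes (32.5% of genes, 28.2% of UMIs) were recovered by inverting the deposited log values, of which 100% came out whole within 0.001, with 0 differing entries in shared genes.

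Counts were summed per library and class (minimum 10000 UMIs per sum) and tested with edgeR 4.0.16 (limma 3.58.1, R 4.3.3; Python 3.11.15), after a filter on low counts, with TMM scaling and the library as block; DESeq2 1.42.0 was an alternative. The scripts were tested on simulated data. The block was kept because double-positive and other sums of a library come from the same pool: their deviations correlated at 0.272 to 0.694, against at most 0.184 with another library. Positions between classes used log2(CPM + 1). Leaving out each library, other minimums for Calb2, Lypd1 and depth, thinning, single ages and other scalings were tried. At a higher Calb2 or Lypd1 minimum, members left out joined the other cells in the comparison with all other cells and in the interaction. In the remaining comparisons they were dropped. Total UMIs per library set the precision.

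Members and gene lists were chosen with earlier results of these data known. Named genes were drawn from those a rule chose: per class comparison the 12 largest differences in each direction with an adjusted p under 0.05, at least 20 CPM in the higher class and 1 direction in all 5 libraries (5 for age and interaction), up to 4 per list by smallest adjusted p, all type IA, IB, IC and II genes, and the 10 furthest above or below both classes; mitochondrial, ribosomal, haemoglobin, sex-linked and unnamed genes were left out. The genes past the 10 above both classes, further called list members and Nefl's difference between ages were named after their values were seen. Promoter letters came from RefSeq and gene positions from GENCODE M21.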

Additional observations from a re-analysis of the deposited data

Results flagged for a closer look

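The difference between double-positive and other cells itself differed between P1 and E18 by edgeR's interaction test for 10 named genes, as a log2 change with P1 minus E18. It was 3.27 for Myl1, 0.84 for Gata3, 0.80 for Id3, 0.69 for H2afy2 and 0.64 for Nefm. It was -1.72 for Ylpm1, -0.72 for S100b, -0.70 for Vstm2l, -0.65 for Rgs10 and -0.61 for Ntng1. Of these 10 calls 8, that of Myl1 among them, were lost when members needed 2 Lypd1 UMIs. Members with 1 UMI were then counted among the other cells. With DESeq2 9 calls were lost, and in cells of at least 8000 UMIs 9. The 2 P1 libraries and the 3 E18 libraries come from different pools of animals.

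Cells outside the 2 ages also met the rule. At E14 0 of 1637 cells did, in the apex at E16 4 of 1368, and in the base at E16 30 of 1110. Of the latter, 22 came from replicate 3, where they were 5.38% of 409 cells (exact Clopper-Pearson 95% interval 3.401% to 8.03%), above the limit that a count of 0 allows.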

How the results depend on the processing

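The counts of genes past an adjusted p of 0.05 moved with the settings as follows. Against all other cells (195 genes) DESeq2 gave 62, a Calb2 minimum of 10 gave 67 and of 20 gave 46, cells of at least 8000 UMIs 71, thinning 71, P1 alone 35, the fit of 4 classes 358, no replicate block 4, and leaving out a library 106 to 201. Against Calb2-only cells (343) the counts were 218 with DESeq2, 189 and 84 at the Calb2 minimums, 175 at 8000 UMIs, 176 thinned, 220 at E18 alone, 133 at P1 alone, 56 with no replicate block and 225 to 281 without a library. Against Lypd1-only cells (284) they were 166 with DESeq2, 172 with 2 Lypd1 UMIs, 146 at 8000 UMIs, 141 thinned, 160 at E18 alone, 145 at P1 alone, 32 with no replicate block and 203 to 248 without a library. For age within double-positive cells (2) they were 8 with no filter, 1 with 2 Lypd1 UMIs, 1 at 8000 UMIs, 6 with the replicate block, 2 to 3 without a library, and 0 at a Calb2 minimum of 20 by edgeR, where 63 had an unadjusted p under 0.05. DESeq2 at the usual minimum gave 2. For the interaction (23) they were 1 with DESeq2, 15 with no filter, 4 and 10 at the Calb2 minimums, 4 with 2 Lypd1 UMIs, 6 at 8000 UMIs, 14 without the 10% deepest cells, 13 thinned and 9 to 17 without a library. The share of double-positive cells differed between ages by 9.54 points at a Calb2 minimum of 20 and by 15.9 to 25.8 without a library. Against all other cells the sign turned for Ntng1 (-0.0058) at a Calb2 minimum of 10, for Calm2 (-0.088), Jun (-0.20), Ntng1 (-0.73), Pld5 (-0.52), Prph (0.21) and Rgma (-0.062) at 20, for Prph at P1 alone (0.0019), and for Pou4f1 (2.09) and Prph (0.14) in the fit of 4 classes. The cause of these changes was not tested. At the higher Calb2 minimums the members left out were counted among all other cells, so the cells compared with also changed. Replicate numbers of E18 and P1 mark separate pools: deviations correlated at 0.265 and -0.0106, so the block between ages pairs numbers only. Depth limits E18 replicate 2, which had too few UMIs to enter at 8000 UMIs. The 2 position settings (a linear scale, and genes of at least 20 CPM) were chosen after seeing the data and gave medians of 0.503 and 0.514.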
